A study of Mus musculus with 6 samples.

Results

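The genes described here are the 32 genes of mitochondrial pyruvate entry, the tricarboxylic acid (TCA) cycle and the malate-aspartate shuttle, taken by symbol from the 27998 genes of the deposited tables, each of which matched 1 gene. They were measured in left ventricular cardiomyocytes (CMs) of C57BL/6J mice on embryonic day 16.5 (E16.5) and on postnatal days 1 (P1) and 5 (P5), with no genetic or drug treatment in any group. Ventricles from several litters were dissociated, fixed in methanol and sorted by MYH1 (a myosin heavy chain) and Hoechst (a DNA stain) into diploid (2n) and tetraploid (4n) CMs, and droplet 3′ single-cell RNA sequencing gave 1 library for each of the 6 groups, named here by age and ploidy (E16.5-2n is the diploid library of E16.5). Every group is 1 pooled library with no replicate, so no p-value is given for an age or a ploidy, and the intervals given are 95% intervals that cover counting error only. The title of the E16.5-4n library gives 16.5 days and its age field gives 16.6. Each litter was sorted on its own, and the sorted cells of an age were pooled before the library was made. The 2n and 4n CMs of an age were sorted by DNA content from the same litters and are not separate sets of animals. A 4n sort collects cells in G2 or mitosis, cells that kept a doubled DNA content, and possibly diploid cells stuck together. The study reports that clumps were scarce in its sorted cells, and doublets were not called here. The sorted samples do not separate these kinds.

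CMs were the cells with at least 1 unique molecular identifier (UMI, 1 counted RNA molecule) of each of Tnni3, Tnnt2, Actc1 and Tnnc1, which held for 30733 of 31156 cells. Library totals ran from 13213992 to 19714177 UMIs and the median CM held 1831 to 4658 UMIs. None of 10 CM markers was at 0 in any library. Mitochondrially encoded RNA took 8.28% and 8.16% of the UMIs of the E16.5 libraries (2n and 4n) and between 16.3% and 18.0% of those of the 4 postnatal libraries. The share of CMs with at least 2 UMIs of fibroblast, endothelial or immune markers was 2.95%, 2.86% and 7.95% in the 2n libraries of E16.5, P1 and P5, and 23.8%, 34.0% and 14.9% in the 4n libraries. CMs with at least 2 UMIs of cycling markers made up 21.8%, 3.11% and 14.1% of the 2n libraries and 57.9%, 13.1% and 44.7% of the 4n libraries. Erythroid markers had at least 2 UMIs in 50.6% to 89.7% of CMs, and their summed level was 5130, 1900 and 2240 CPM in 2n-CMs of E16.5, P1 and P5 and 10300, 2910 and 1650 CPM in 4n-CMs, so it differed with both age and ploidy. The part of this erythroid level in the results was not tested on its own. A CM with more UMIs reaches 2 UMIs of a marker more readily, so these shares may also differ with depth. The median CM held 1831 UMIs in P1-2n and 4658 in P5-4n. Between 17 and 62 cell barcodes were shared by any pair of libraries.

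Pyruvate enters the mitochondrion through a carrier built of MPC1 and MPC2 and is turned into acetyl-CoA by the pyruvate dehydrogenase complex, which kinases switch off and phosphatases switch on. The TCA cycle oxidises acetyl-CoA to carbon dioxide and passes the electrons to NADH and FADH2 for the respiratory chain. The malate-aspartate shuttle carries the electrons of cytosolic NADH, made in glycolysis, across the inner membrane, and in the heart it is a main route for them. Around birth the heart moves from using mostly glucose and lactate to using mostly fatty acids, and the TCA cycle serves both fuels.

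RefSeq promoters (GRCm38.p6, from 250 bases before to 50 bases after each start site) matched 30 of the 32 genes, and Idh3a and Pdp1 had no entry. The stretches below come from before the start sites of 2 genes whose level rose with age, Ogdh and Cs (Cs in 4n-CMs), and of 2 whose level fell, Idh2 and Suclg2 (Suclg2 in 2n-CMs). Each is 150 bases, in the direction of the gene and clear of annotated exons, with every CG pair in capitals. They lie at chr11:6291447-6291596 on the plus strand (Ogdh), chr10:128337577-128337726 on the plus strand (Cs), chr7:80115393-80115542 on the minus strand (Idh2) and chr6:95718847-95718996 on the minus strand (Suclg2).
Ogdh: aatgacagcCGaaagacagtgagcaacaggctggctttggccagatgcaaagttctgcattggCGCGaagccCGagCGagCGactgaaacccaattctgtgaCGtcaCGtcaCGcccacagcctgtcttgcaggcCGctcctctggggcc
Cs: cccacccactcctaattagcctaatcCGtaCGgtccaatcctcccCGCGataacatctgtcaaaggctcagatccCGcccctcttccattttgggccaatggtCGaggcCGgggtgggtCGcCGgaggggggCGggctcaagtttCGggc
Idh2: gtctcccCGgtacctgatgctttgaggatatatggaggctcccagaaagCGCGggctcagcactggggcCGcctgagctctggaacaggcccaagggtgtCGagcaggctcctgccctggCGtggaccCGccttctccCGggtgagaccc
Suclg2: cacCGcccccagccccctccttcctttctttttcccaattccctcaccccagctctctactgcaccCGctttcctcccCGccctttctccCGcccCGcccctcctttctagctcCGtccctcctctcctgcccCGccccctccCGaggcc
These stretches held 10, 11, 8 and 8 CG pairs. Over the whole 300-base promoters, the 30 genes held between 12 and 51 CG pairs with a median of 20.5, and 53.9% of 17492 protein-coding genes reached at least 12, with a median of 13. Every member with an entry thus lay near or above the middle of the protein-coding genes.

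A few letter patterns of factors linked to mitochondrial genes were searched on both strands of the same promoters. The estrogen-related receptor element TCAAGGTCA was in none of the 30 genes and in 0.466% of all 27025 genes, and its inner part AAGGTCA was in Got1 and Ogdh (6.67%, against 5.38% of all genes). The ETS pattern CCGGAAGT was in Dlst (3.33%, against 4.31%). Each pattern was thus in at most 2 of the 30 genes, a share close to or below that of all genes. The 27025 genes include noncoding ones and had a median of 7 CG pairs, against 20.5 in the members. The shares were not counted over protein-coding genes alone.

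Levels are given in CPM, the UMIs of a gene in every 1000000 UMIs of the CMs of a library, and differences as the log2 ratio of CPM. A gene is said to have risen or fallen where its CPM changed at least 1.5-fold between 2 libraries that together held at least 100 of its UMIs. In summed UMIs, a lower level in every CM and fewer CMs with the transcript cannot be told apart. With the ages always in the order E16.5, P1 and P5, the 32 genes together took 1.58%, 1.53% and 1.5% of the UMIs of 2n-CMs and 1.33%, 1.31% and 1.44% of those of 4n-CMs. This near-constant sum held different trends. Mdh1, Idh2 and Mdh2 together supplied 51.5% of the members' UMIs in E16.5-2n and 43.3% in P5-2n. These 3 genes did not move alike. From E16.5 to P5 in 2n-CMs, Idh2 went from 2883 to 1562 CPM, Mdh1 from 3486 to 3078 and Mdh2 from 1758 to 1850. In 4n-CMs Idh2 went from 2341 to 1467 CPM, while Mdh1 (2863 to 3002) and Mdh2 (1533 to 1764) were higher at P5. Without these 3 genes, the sum was 7645, 8179 and 8505 CPM for 2n-CMs and 6513, 7209 and 8169 CPM for 4n-CMs.

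From E16.5 to P5 in 2n-CMs, 5 of the 31 members tested rose (Mpc1, Mpc2, Pdp1, Me3 and Ogdh), where 6.54% of 9504 genes did, and 3 fell (Idh1, Idh2 and Suclg2), where 40.3% of all genes did. In 4n-CMs, 8 of 31 rose (Mpc1, Mpc2, Pdp1, Me3, Cs, Idh3b, Ogdh and Dlst), where 5.71% of 9598 genes did, and 1 (Idh2) fell, where 44.5% of all genes did. Pcx, with under 100 UMIs over the libraries compared, was the member not tested. The median log2 ratio of all genes tested was -0.45 in 2n-CMs and -0.51 in 4n-CMs, and the median of the members was 0.07 and 0.27. Read against the median of all genes, 13 members rose and 1 (Idh1) fell in 2n-CMs (all genes 17.2% and 15.5%), and 21 rose and 0 fell in 4n-CMs (17.4% and 17.1%). On that scale 27 of 31 members lay above the all-gene median in 2n-CMs and 30 of 31 in 4n-CMs. Dld, Aco1, Idh3a, Fh1, Mdh1, Got1 and Glud1, which were lower in CPM at P5 in 2n-CMs, were higher on that scale, so the direction of these 7 depends on the scaling. The same held in 4n-CMs for Dld, Idh1, Idh3a, Idh3g, Suclg2, Fh1 and Glud1. On that scale Idh1 (0.03) and Suclg2 (0.01) lay close to the median in 4n-CMs.

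**Figure D1:**
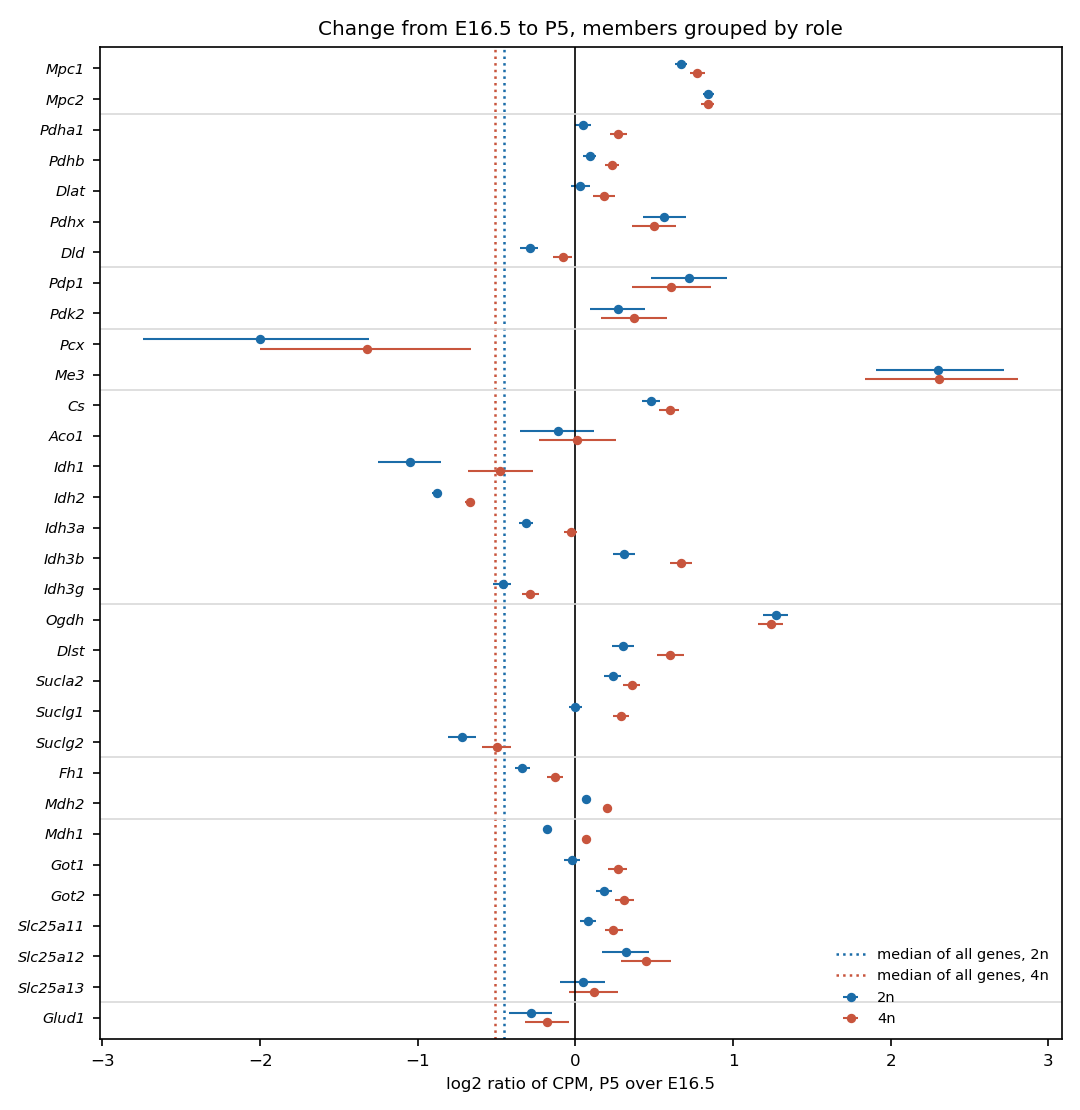
Log2 ratio of CPM, P5 over E16.5, for each of the 32 genes in 2n-CMs (blue) and 4n-CMs (red), with 95% counting intervals and grey lines between roles. Dotted lines mark the median of all genes tested (-0.45 and -0.51). Me3 and Ogdh lie farthest to the right and Pcx farthest to the left.

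The pyruvate carrier rose in both of its subunits. Mpc1 (chromosome 17, 8282904 to 8297661, GRCm38) stood at 478, 610 and 759 CPM in the 2n libraries of E16.5, P1 and P5 and at 438, 534 and 749 CPM in the 4n libraries. Mpc2 (chromosome 1, 165460637 to 165481214) stood at 617, 928 and 1107 CPM in 2n-CMs and at 565, 833 and 1012 CPM in 4n-CMs. Each age was higher than the one before in both sorts, with no overlap between E16.5 and P5. From E16.5 to P5, Mpc1 was 1.59-fold higher in 2n-CMs (log2 ratio 0.67, 0.63 to 0.71) and 1.71-fold in 4n-CMs, and Mpc2 was 1.79-fold higher in both. Mpc2 gained more than Mpc1 between E16.5 and P1, and the ratio of Mpc1 to Mpc2 UMIs went from 0.774 to 0.658 in 2n-CMs (log2 change -0.23, -0.29 to -0.18) before it stood at 0.686 at P5.

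The pyruvate dehydrogenase complex itself stayed within the fold of CPM in every comparison. Its 5 genes encode the 2 parts of the E1 enzyme (Pdha1, Pdhb), the E2 acetyltransferase (Dlat), the binding protein (Pdhx) and the E3 dehydrogenase (Dld), which it shares with the 2-oxoglutarate dehydrogenase complex. Their summed level was 1684, 1726 and 1706 CPM in the 2n libraries and 1443, 1494 and 1646 CPM in the 4n libraries. Pdhx differed most with age, at 50.1, 57.5 and 74.0 CPM in 2n-CMs and 49.5, 49.6 and 70.1 CPM in 4n-CMs, which is 1.48-fold and 1.42-fold from E16.5 to P5. Dld was the member of the complex whose CPM went the other way in 2n-CMs, at 338, 318 and 275 CPM (log2 ratio -0.29, -0.35 to -0.24), and in 4n-CMs it stood at 291, 262 and 275 CPM. The catalytic genes Pdha1, Pdhb and Dlat had log2 ratios of P5 over E16.5 between 0.03 and 0.27. Relative to the median of all genes, Pdhx rose from E16.5 to P5 in both sorts (1.01 in each), and Pdha1, Pdhb and Dlat rose in 4n-CMs (0.78, 0.74 and 0.69). On that scale Dld was higher, not lower, at P5 in 2n-CMs (0.16).

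Pdp1 and Pdk2 act on the complex in opposite ways, Pdp1 as the phosphatase that activates it and Pdk2 as a kinase that inhibits it. Pdp1 stood at 15.1, 22.3 and 24.8 CPM in 2n-CMs and 15.3, 24.4 and 23.3 CPM in 4n-CMs, so that most of its gain lay between E16.5 and P1. Pdk2 stood at 30.4, 44.6 and 36.6 CPM in 2n-CMs and 22.1, 42.9 and 28.6 CPM in 4n-CMs, with P1 highest in both. In 4n-CMs Pdk2 rose 1.94-fold to P1 and then fell to P5 (log2 ratio -0.59). The ratio of Pdp1 to Pdk2 UMIs was higher at P5 than at P1 in both sorts, at 0.678 against 0.5 in 2n-CMs (log2 change 0.44, 0.18 to 0.70) and 0.816 against 0.569 in 4n-CMs (0.52, 0.27 to 0.77). At E16.5 it stood at 0.497 in 2n-CMs and 0.692 in 4n-CMs. Its change from E16.5 to P5 was 0.45 (0.15 to 0.75) in 2n-CMs, and in 4n-CMs the interval spanned 0 (0.24, -0.09 to 0.57).

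Me3, the mitochondrial NADP-dependent malic enzyme that turns malate into pyruvate, rose more than any other tested member in each of the 6 comparisons of ages. It was rare, with 61 UMIs in E16.5-2n and 369 in P5-2n, and stood at 4.17, 11.8 and 20.6 CPM in 2n-CMs and 3.21, 9.20 and 15.9 CPM in 4n-CMs. Each age lay above the last without overlap of the counting intervals, and from E16.5 to P5 Me3 was 4.94-fold higher in 2n-CMs (log2 ratio 2.30, 1.91 to 2.72) and 4.96-fold higher in 4n-CMs. Pcx, pyruvate carboxylase, which makes oxaloacetate from pyruvate, was rarer still, with 75, 21 and 23 UMIs in the 2n libraries and 55, 34 and 31 in the 4n libraries. Its CPM was lower after birth (log2 ratio P5 over E16.5 -2.0, -2.74 to -1.31, in 2n-CMs and -1.32, -2.0 to -0.66, in 4n-CMs), below the UMI minimum for a call.

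**Figure D2:**
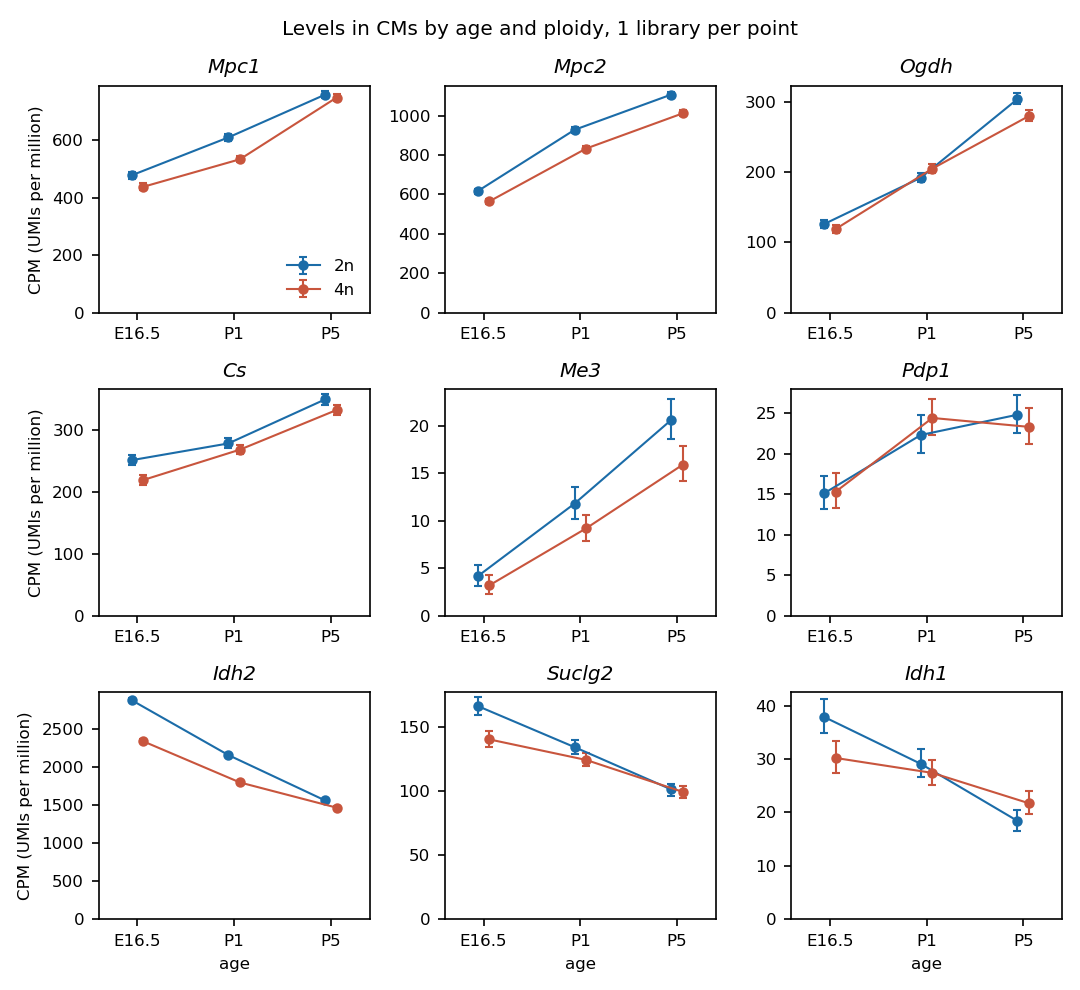
CPM of 9 members in CMs of each library by age (2n blue, 4n red), 1 library per point, with 95% counting intervals, each axis starting at 0. The upper 6 panels are higher at P5 than at E16.5 and the lower row (Idh2, Suclg2, Idh1) is lower, as in Idh2 from 2883 CPM in E16.5-2n to 1562 in P5-2n.

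The first steps of the cycle, from citrate to 2-oxoglutarate, moved in opposite directions. Cs, citrate synthase (chromosome 10, 128337734 to 128362479), stood at 251, 278 and 349 CPM in 2n-CMs and 219, 268 and 332 CPM in 4n-CMs. Cs was 1.39-fold higher at P5 than at E16.5 in 2n-CMs and 1.51-fold in 4n-CMs, which put it just below and just above the fold. Aco1, the cytosolic aconitase that also binds iron-responsive elements, stayed between 17.9 and 19.3 CPM in all 6 libraries.

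The isocitrate dehydrogenase genes differed among themselves. Idh2, the mitochondrial NADP-dependent enzyme (chromosome 7, 80094846 to 80115392), stood at 2883, 2160 and 1562 CPM in 2n-CMs and 2341, 1799 and 1467 CPM in 4n-CMs. It fell from E16.5 to P5 in both (log2 ratio -0.88, -0.91 to -0.86, and -0.67, -0.70 to -0.65), and remained lower relative to the median of all genes (-0.43 and -0.17). Idh1, its cytosolic counterpart, stood at 37.9, 29.1 and 18.4 CPM in 2n-CMs (log2 ratio -1.05, -1.25 to -0.85) and 30.2, 27.4 and 21.7 CPM in 4n-CMs (-0.48, -0.68 to -0.27). Relative to the median of all genes, Idh1 was lower in 2n-CMs (-0.60) and not in 4n-CMs (0.03). The difference between the 2 sorts in the change of Idh1 was 0.57 (0.29 to 0.85), the largest of any member tested.

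The 3 subunits of the NAD-dependent isocitrate dehydrogenase, a rate-controlling enzyme of the cycle, did not keep pace. The gene of its catalytic subunit, Idh3a, stood at 662, 548 and 532 CPM in 2n-CMs and 565, 485 and 554 CPM in 4n-CMs. Idh3b stood at 201, 250 and 249 CPM in 2n-CMs and 171, 288 and 272 CPM in 4n-CMs, where it rose 1.68-fold from E16.5 to P1. Idh3g stood at 439, 459 and 318 CPM in 2n-CMs and 359, 393 and 294 CPM in 4n-CMs. Idh3b thus gained by P1 and held, while Idh3g held to P1 and was lower at P5 (log2 ratio P5 over P1 -0.53, -0.58 to -0.48, in 2n-CMs and -0.42 in 4n-CMs). The ratio of Idh3a to Idh3b UMIs went from 3.30 at E16.5 to 2.19 at P1 and 2.14 at P5 in 2n-CMs and from 3.31 to 1.69 and 2.04 in 4n-CMs. Against Idh3g, Idh3a went from 1.51 to 1.19 and then to 1.67 in 2n-CMs, and from 1.57 to 1.23 and 1.88 in 4n-CMs.

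Within the 2-oxoglutarate dehydrogenase complex, Ogdh rose in both sorts, Dlst in 4n-CMs, and Dld in neither. Ogdh, its E1 enzyme (chromosome 11, 6291633 to 6356642), stood at 126, 192 and 304 CPM in 2n-CMs and 119, 205 and 280 CPM in 4n-CMs. Each age stood well above the last in both sorts, and Ogdh was 2.41-fold higher at P5 than at E16.5 in 2n-CMs (log2 ratio 1.27, 1.19 to 1.35) and 2.36-fold in 4n-CMs (1.24, 1.16 to 1.32). Dlst, the E2 enzyme of the complex, stood at 179, 177 and 221 CPM in 2n-CMs and 140, 163 and 213 CPM in 4n-CMs, and its 1.52-fold gain from E16.5 to P5 in 4n-CMs passed the fold. With Dld lower in 2n-CMs, the 3 enzymes of this complex went different ways there in CPM. Relative to the median of all genes, all 3 were higher at P5 in 2n-CMs (Ogdh 1.72, Dlst 0.75 and Dld 0.16).

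Succinyl-CoA synthetase pairs the shared subunit SUCLG1 with either SUCLA2, which makes ATP, or SUCLG2, which makes GTP. Sucla2 stood at 340, 374 and 400 CPM in 2n-CMs and 305, 333 and 391 CPM in 4n-CMs. Suclg2 (chromosome 6, 95473009 to 95718800) stood at 166, 134 and 101 CPM in 2n-CMs and 140, 124 and 99.1 CPM in 4n-CMs. Sucla2 was higher and Suclg2 lower at each later age, and Suclg2 fell in 2n-CMs from E16.5 to P5 (log2 ratio -0.72, -0.81 to -0.63) while its 4n value, -0.50, missed the fold and was 0.01 relative to the median of all genes. The ratio of Sucla2 to Suclg2 UMIs, which does not depend on the scaling of a library, went from 2.05 to 2.79 and 3.98 in 2n-CMs and from 2.17 to 2.68 and 3.94 in 4n-CMs. Its log2 change from E16.5 to P5 was 0.96 (0.85 to 1.06) in 2n-CMs and 0.86 (0.75 to 0.97) in 4n-CMs, the largest of the 10 partner pairs compared. Suclg1 stood at 549, 653 and 549 CPM in 2n-CMs and 455, 531 and 556 CPM in 4n-CMs.

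**Figure D3:**
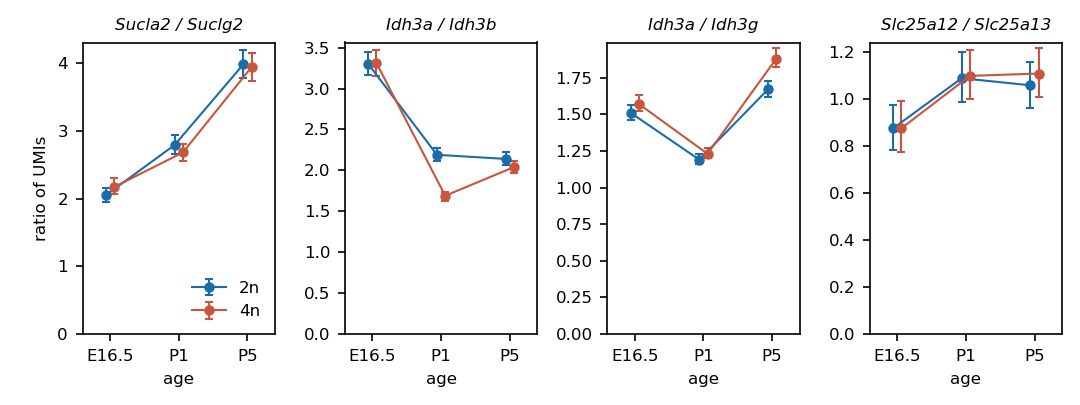
Ratio of the UMIs of 2 partner genes in each library by age (2n blue, 4n red), with 95% counting intervals and axes from 0. Sucla2 over Suclg2 goes up from about 2.05 to 3.98 in 2n-CMs, Idh3a over Idh3b goes down from 3.30 to 2.14, Idh3a over Idh3g dips at P1, and Slc25a12 over Slc25a13 stays between 0.876 and 1.11.

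The last steps of the cycle stayed within the fold of CPM. Fh1, fumarase, stood at 552, 477 and 437 CPM in 2n-CMs and 449, 365 and 410 CPM in 4n-CMs. Mdh2, the mitochondrial malate dehydrogenase that serves both the cycle and the shuttle, stood at 1758, 1787 and 1850 CPM in 2n-CMs and 1533, 1491 and 1764 CPM in 4n-CMs. Both were within a log2 ratio of -0.34 to 0.20 of their E16.5 level at P5. Relative to the median of all genes, Mdh2 rose from E16.5 to P5 in 4n-CMs (0.71) and Fh1 did not (0.38). The 4 genes of succinate dehydrogenase, Sdha, Sdhb, Sdhc and Sdhd, which are not members, also stayed within the fold of CPM in all 9 comparisons. Relative to the median of all genes, Sdha (0.73), Sdhb (0.71) and Sdhd (0.61) rose from E16.5 to P5 in 4n-CMs and Sdhc (0.53) did not.

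None of the 6 further genes of the malate-aspartate shuttle rose or fell in CPM in any comparison. Relative to the median of all genes, Got1, Got2, Slc25a11, Slc25a12 and Slc25a13 rose from E16.5 to P5 in 4n-CMs (0.62 to 0.96), and Got2 (0.63) and Slc25a12 (0.77) rose in 2n-CMs. Mdh1, the cytosolic malate dehydrogenase and the member with the most UMIs, stood at 3486, 3166 and 3078 CPM in 2n-CMs and 2863, 2639 and 3002 CPM in 4n-CMs. Its ratio to Mdh2 went from 1.98 to 1.66 in 2n-CMs (log2 change -0.25, -0.28 to -0.22) and from 1.87 to 1.70 in 4n-CMs (-0.13, -0.17 to -0.10). The aspartate aminotransferases Got1 (cytosolic) and Got2 (mitochondrial) stayed near each other, with a UMI ratio between 0.970 and 1.11 in all 6 libraries. The 2-oxoglutarate carrier Slc25a11 stood at 408, 387 and 431 CPM in 2n-CMs and 324, 315 and 384 CPM in 4n-CMs.

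Of the 2 aspartate-glutamate carriers, Slc25a12 (the main form of heart and brain) stood at 41.7, 52.1 and 52.0 CPM in 2n-CMs and 37.4, 49.7 and 51.2 CPM in 4n-CMs. Slc25a13 (the main form of liver) stood at 47.6, 47.8 and 49.2 CPM in 2n-CMs and 42.7, 45.2 and 46.2 CPM in 4n-CMs. Slc25a12 UMIs were the fewer of the pair at E16.5 (ratio 0.876 in both sorts) and level with or above it at P5 (1.06, 0.963 to 1.16, and 1.11, 1.01 to 1.22), a log2 change of 0.27 (0.06 to 0.48) in 2n-CMs and 0.34 (0.11 to 0.56) in 4n-CMs. Glud1, glutamate dehydrogenase, which lets glutamate enter the cycle, stood at 62.6, 58.9 and 51.4 CPM in 2n-CMs and 60.3, 64.1 and 53.2 CPM in 4n-CMs. It did not pass the fold of CPM in any comparison.

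Members rose in both intervals, but from P1 to P5 the share that rose was no higher than that of all genes. From E16.5 to P1, 3 of 31 members rose in 2n-CMs (Mpc2, Me3 and Ogdh, all genes 4.79%) and 5 in 4n-CMs (Pdp1, Pdk2, Me3, Idh3b and Ogdh, all genes 6.55%), and none fell in either, where 31.4% and 30.4% of all genes fell. The median of all genes was -0.34 and -0.30 in this interval, beside the higher mitochondrially encoded share after birth, and the median of the members was 0.01 and 0.08. From P1 to P5, Me3 and Ogdh rose and Idh1 fell in 2n-CMs (all genes 7.27% and 9.11%), and Me3 rose and Pdk2 fell in 4n-CMs (5.14% and 16.1%), with all-gene medians of -0.09 and -0.16 and member medians of 0.04 and 0.19. Without CMs with markers of any other type, erythroid included, the members' median for P5 over P1 was -0.05 in both sorts, the median of all genes -0.12 and -0.06, and 11 of 31 members in 2n-CMs and 12 of 29 in 4n-CMs lay above 0, so the direction of this median depends on the CMs kept. The P1 libraries enter both intervals. The part of the mitochondrially encoded share in these differences was not tested.

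The age changes in 2n-CMs and in 4n-CMs share no library, but each age's 2 libraries share the source litters. From E16.5 to P5, 28 of 32 members had the same sign in both, and Pearson's r over the 32 genes was 0.99, given as a description since the genes share libraries, source litters and scaling. The log2 ratio was higher in 4n-CMs than in 2n-CMs by more than its counting interval for 21 members and lower for 0, with a median difference of 0.15. The share of all genes was not counted for these signs and differences, so the counts describe the members alone. For members lower at P5, such as Idh1, Idh2 and Suclg2, the higher ratio in 4n-CMs is the smaller change. Ogdh, Mpc2 and Me3 had near-equal changes in both sorts (differences of -0.03, -0.00 and 0.01), whereas Idh1 (0.57), Idh3b (0.36), Dlst (0.30), Idh3a (0.29), Suclg1 (0.29) and Got1 (0.29) differed more. The same difference is seen from the other side in the comparison of ploidies.

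Between 4n-CMs and 2n-CMs of the same age, no member rose or fell at any of the 3 ages. At E16.5, 9.3% of 9625 genes rose and 1.04% fell, at P1 9.61% and 0.29%, and at P5 3.84% and 1.85%. Within the fold, the members were mostly lower in 4n-CMs, with 31 of 32 below 0 at E16.5, 26 of 31 at P1 and 25 of 31 at P5. Their median log2 ratio was -0.23, -0.18 and -0.07 at the 3 ages, where the median of all genes was 0.03, 0.05 and 0.02. The counting interval lay below 0 for 23 members at E16.5 (18.1% of all genes), 21 at P1 (13.1%) and 14 at P5 (12.9%). It lay above 0 for no member at E16.5 (25.3% of all genes), for Idh3b, Ogdh and Glud1 at P1 (24.7%) and for Idh1, Idh3a and Idh3b at P5 (17.2%). How far 2 libraries of the same group would differ is not known here.

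Of the 6 shuttle genes, 4 had an interval below 0 at E16.5. Mdh1 stood at -0.28 (-0.30 to -0.26), Got1 at -0.33 (-0.39 to -0.27), Got2 at -0.30 (-0.36 to -0.24) and Slc25a11 at -0.33 (-0.39 to -0.27). At P1 the same genes stood at -0.26, -0.25, -0.20 and -0.29, and at P5 at -0.04, -0.03, -0.17 and -0.16. The intervals of Slc25a12 (-0.16, -0.33 to 0.02) and Slc25a13 (-0.16, -0.32 to 0.01) spanned 0 at E16.5. Pdk2 was lower in 4n-CMs at E16.5 (-0.46, -0.68 to -0.24) and at P5 (-0.36, -0.52 to -0.19), and at P1 its value was -0.06 (-0.20 to 0.09). Idh3b was the one member whose interval lay below 0 at E16.5 (-0.23, -0.31 to -0.15) and above 0 at P1 (0.20, 0.14 to 0.26).

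**Figure D4:**
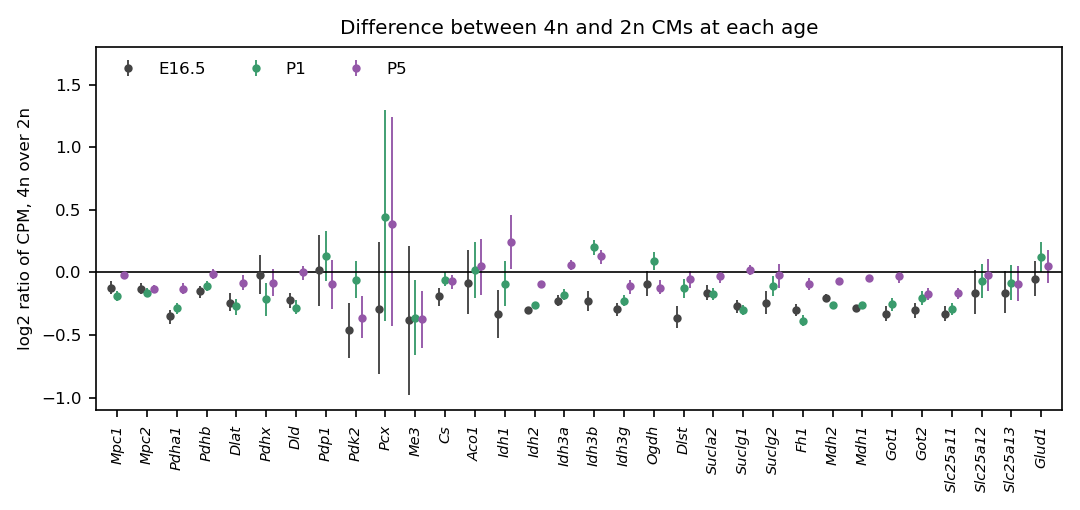
Log2 ratio of CPM, 4n over 2n, of each of the 32 genes at E16.5 (grey), P1 (green) and P5 (purple), with 95% counting intervals. Most grey and green points lie below 0 and the purple points lie nearer to it. Pcx and Me3 have the widest intervals.

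The shares of CMs with markers of other cell types and of cycling also differed between 2n and 4n libraries. Within each of the 6 libraries, CMs with at least 2 UMIs of the 18 fibroblast, endothelial and immune markers had a lower summed level of the members than the other CMs, by a log2 ratio of -0.26, -0.31 and -0.19 in the 2n libraries of E16.5, P1 and P5 and -0.24, -0.16 and -0.12 in the 4n libraries. The median of all genes was 0.05, 0.10 and 0.14 in the 2n libraries and 0.05, 0.09 and 0.09 in the 4n libraries. Unlike the summed level, Glud1 was higher in CMs with these markers in all 6 libraries by 0.19 to 0.55, each interval above 0. Idh1 lay at 0.08 to 0.38, with its interval above 0 in P5-4n alone. With these CMs left out of every library, the members' median log2 ratio of 4n over 2n was -0.19 at E16.5, -0.12 at P1 and -0.07 at P5, with 29, 25 and 25 of 31 members below 0. The median of all genes was -0.01, -0.01 and 0.01 in this setting. Without CMs with markers of any other type, erythroid included, the members' median was -0.28, -0.10 and -0.08, with 23 of 25, 24 of 31 and 21 of 30 below 0. That setting left out 88.0% of the CMs of E16.5-2n and 90.8% of those of E16.5-4n. The median of all genes was then -0.04, -0.02 and 0.01. The summed fibroblast markers were 126, 131 and 243 CPM for 2n-CMs and 750, 886 and 334 CPM for 4n-CMs.

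CMs with at least 2 UMIs of the 12 cycling markers differed less from the other CMs of their library. For both kinds of marker, a CM with more UMIs reaches 2 UMIs more readily. The depth of CMs with and without the markers was not compared. The summed level of the members in CMs with cycling markers lay at a log2 ratio of -0.07, -0.04 and -0.13 in the 2n libraries and -0.02, -0.01 and -0.06 in the 4n libraries. The median of all genes was 0.01, 0.06 and 0.10 in the 2n libraries and -0.02, 0.05 and 0.17 in the 4n libraries. In P5-2n, where the summed level differed most, 20 of 31 members had an interval below 0, among them Mpc1 (-0.17) and Ogdh (-0.14). The share of all genes with such an interval was not counted. With CMs holding either kind of marker left out, the median of 4n over 2n was -0.17, -0.13 and -0.06, and the median of all genes -0.02, -0.02 and -0.06. At P5 the members' median was thus level with that of all genes. With all CMs kept, those medians were -0.07 and 0.02 at P5, so mainly the median of all genes differed. Of the members, 24 of 31 lay below 0 at P5, against 25 of 31 with all CMs kept.

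Among 26 further genes of the same pathways, several changed more than most of the members. From E16.5 to P5 in 2n-CMs, 6 of 21 tested rose and 5 fell (all genes 6.54% and 40.3%). In 4n-CMs 6 of 20 rose and 6 fell (5.71% and 44.5%). The share that fell was below that of all genes in both sorts. The pyruvate dehydrogenase kinases moved in opposite directions. Pdk3 stood at 74.5, 31.8 and 20.4 CPM and Pdk1 at 126, 74.6 and 62.2 CPM in 2n-CMs, while Pdk4, a kinase induced by fasting and fatty acids, stood at 25.8, 96.7 and 98.1 CPM. Almost all of the gain in Pdk4 lay between E16.5 and P1 (3.74-fold in 2n-CMs and 4.18-fold in 4n-CMs). Relative to the median of all genes, from E16.5 to P5 in 4n-CMs, Pdk3 fell (-1.19), Pdk4 rose (2.66) and Pdk1 stayed within the fold (-0.35).

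The 3 malic enzymes also went different ways. Cytosolic Me1 stood at 14.4, 34.8 and 54.7 CPM in 2n-CMs (3.79-fold from E16.5 to P5) and rose like Me3, whereas mitochondrial NAD-dependent Me2 stood at 9.50, 2.92 and 3.85 CPM and fell. Gpd1, the cytosolic enzyme of the glycerol-3-phosphate shuttle, the other carrier of cytosolic NADH electrons, stood at 0.957, 6.69 and 14.1 CPM in 2n-CMs and 0.689, 3.97 and 8.10 CPM in 4n-CMs. Its mitochondrial partner Gpd2 stood at 10.2, 6.51 and 8.93 CPM in 2n-CMs and was within the fold from E16.5 to P5. Pck2, the mitochondrial phosphoenolpyruvate carboxykinase, fell in both sorts, from 19.1 to 3.57 CPM in 2n-CMs and from 18.8 to 8.04 CPM in 4n-CMs. The testis form Pdha2 had 0 UMIs in every library, where the 3 counts that a count of 0 allows come to 0.153 to 0.230 CPM.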

How the data were processed

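Per the labels and the study's methods, the authors sorted fixed CMs litter by litter, pooled the sorted cells and made 10x 3′ libraries. They used Cell Ranger with STAR on mm10 (GRCm38), and Seurat (2.3.0 in the labels) downstream. The deposited matrices hold raw UMI counts per gene and cell, not normalised, for the cells that passed the authors' filters. Here, counts were summed over CMs in each library (27998 genes) and scaled to CPM. Ratios have exact 95% intervals from the binomial split of the UMIs, and changes in partner ratios have exact conditional odds-ratio intervals, or Wald intervals where counts were large (Mdh1 with Mdh2 throughout, most of Idh1 with Idh2). Genes with at least 100 UMIs over both libraries were tested against a 1.5-fold change, and percentages of all genes use the same rule. Markers needed 2 UMIs in a CM. Doublets were not called. The 3′ counts do not compare levels between genes. The procedure was tested on simulated data. All 32 members are reported, with 26 further genes given as counts and examples, and members, lists and rules were chosen with earlier results of these data known. Gene positions are from GENCODE and promoters from RefSeq. Python 3.11.15, numpy 2.4.6, scipy 1.17.1 and pandas 2.3.3 were used. Alternatives changed scaling, cells, fold, UMI minimum and depth (CMs thinned to 1000 UMIs).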

Additional observations from a re-analysis of the deposited data

Results flagged for a closer look

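In 3 members the sign of a log2 ratio differed between groups under the same comparison, each with a counting interval clear of 0 both in CPM and with median-of-ratios scaling. The difference itself was not tested, since each group is 1 library. For P5 over P1, Dld stood at -0.21 in 2n-CMs, where it was lower at P5, and at 0.07 in 4n-CMs. Suclg1 did the same, at -0.25 and 0.07. For 4n over 2n, Idh3b stood at -0.23 at E16.5, and it was higher in 4n-CMs at P1 (0.20) and P5 (0.13). In CPM alone the sign also differed for Pdhb (-0.04 and 0.06), Fh1 (-0.13 and 0.17) and Mdh1 (-0.04 and 0.19) in P5 over P1, and for Mdh1 in P5 over E16.5 (-0.18 and 0.07), 2n before 4n. In 4n over 2n it differed in CPM alone for Idh1 (-0.33 at E16.5, 0.24 at P5), Idh3a (-0.23 at E16.5, -0.18 at P1, 0.06 at P5) and Ogdh (0.09 at P1, -0.12 at P5).

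The 423 cells left out because they lacked 1 of the 4 CM markers also held UMIs of the members. Over all libraries, 3654 of their 514213 UMIs came from 31 of the members, or 7106 CPM (6877 to 7340), against 13137 to 15772 CPM in the CMs of the 6 libraries.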

How the results depend on the processing

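A fold of 2, a fold of 1.2 and no UMI minimum leave every log2 ratio as it was, so they could not change a sign. Under the rest of the 11 alternatives and the 3 added after seeing the data, no called log2 ratio of a member changed sign. The settings of 2 UMIs of each marker and of no filter on cells moved none of the 288 member values beyond its interval. The counts of members past the fold did move. Apart from the shares given above relative to the median of all genes, no share of all genes was counted under the alternatives. The counts below thus show only how the calls on members move. With 1 library per group, none could be left out. No paired analysis was possible because each group is 1 library, and the ratios of 4n to 2n are given within each age. Below, comparisons run P1 over E16.5, P5 over P1, P5 over E16.5, first in 2n-CMs and then in 4n-CMs, and counts not named stayed within 1.5 times. With median-of-ratios scaling, members that rose numbered 9, 2 and 13, then 9, 5 and 22, and those that fell 0, 0 and 1, then 0, 0 and 0. Relative to the median of all genes (an added alternative), 8, 2 and 13, then 8, 4 and 21 rose, and 0, 0 and 1, then 0, 0 and 0 fell. Without the 50 most abundant genes in the total, 6, 2 and 9 rose in 2n-CMs and 13 rose from E16.5 to P5 in 4n-CMs, where 0 fell, as from P1 to P5. A fold of 2 left 1, 0 and 2 risen in both sorts and 0, 0 and 1, then 0, 0 and 0 fallen. A fold of 1.2 gave 8, 6 and 11, then 9, 10 and 16 risen and 4, 5 and 8, then 2, 6 and 4 fallen, and in 4n-CMs over 2n-CMs 14 members fallen at E16.5, 8 at P1 and 2 at P5. With no UMI minimum, Pcx added 1 fallen member, giving 1 from E16.5 to P1 in both sorts and 2 from E16.5 to P5 in 4n-CMs. Without CMs with cycling markers, 1 rose from E16.5 to P1 in 2n-CMs and 0 fell from P1 to P5 in 4n-CMs, with log2 ratios near the fold (0.58) throughout (Mpc2 0.59 to 0.56, Ogdh 0.61 to 0.57 and Pdk2 -0.59 to -0.54). Without CMs with fibroblast, endothelial or immune markers (added), 5 rose from E16.5 to P1 in 2n-CMs and 5 from E16.5 to P5 in 4n-CMs. Without CMs with those or cycling markers (added), these counts were 1 and 5, and 0 fell from P1 to P5 in either sort. Without CMs with markers of any other type, erythroid included, which dropped 51.9% to 90.8% of CMs, 3 rose from E16.5 to P5 in 2n-CMs, 0 rose from P1 to P5 in 4n-CMs, and of 4n-CMs 1 fell from E16.5 to P1 and 2 up to P5. The mean over cells gave 0 fallen from P1 to P5 in 2n-CMs. Thinned CMs gave 2 fallen there, 5 risen and 2 fallen from E16.5 to P5 in 4n-CMs, and 1 fallen in P5-4n against P5-2n. The cause of these moves was not tested. Depth limits Pcx and Me3 most, with 21 to 75 and 42 to 369 UMIs per library.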
